A study of Mus musculus with 4 samples.

Results

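The 9 genes described here encode enzymes of cholesterol and fatty acid synthesis and the transcription factors that control them. They were taken by name: Hmgcs1, Idi1, Fdft1, Sqle and Lss of the sterol pathway, Acly and Fasn of fatty acid synthesis, and the regulators Srebf1 and Srebf2. All 9 had 1 row each in a table of 9997 gene symbols, and all were among the 5885 symbols that reached 1 FPKM in at least 1 library. The deposited unit is FPKM, which divides the fragments of a gene by its transcript length and by the mapped fragments of the library. The series profiled RNA of embryoid bodies, the suspended aggregates that embryonic stem cells form, from the mouse line ES-E14TG2a. The 4 libraries, 1 for each of 4 groups, are control embryoid bodies, and embryoid bodies treated with all-trans retinoic acid (ATRA) and labelled 0, 6 and 10 days. ATRA is the vitamin A derivative used to drive such cells towards neurons. Doses of 5 µM were given on culture days 4 and 6, the series describes the stages as following 4 days of ATRA, and embryoid bodies moved to dishes coated with polyornithine and laminin after 8 days. The labels leave out the culture day of the control and which libraries were taken after the transfer, so ATRA, culture age and culture format cannot be told apart. Each group has a single library, so there is no replicate check of any difference and no test was possible.

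Cells make cholesterol from acetyl-CoA through the mevalonate pathway. Hmgcs1 joins acetyl units into HMG-CoA, Idi1 isomerises the isoprenoid building block, Fdft1 condenses farnesyl units into squalene, Sqle oxidises squalene, and Lss closes the rings to lanosterol. Acly releases cytosolic acetyl-CoA from citrate, which feeds both pathways, and Fasn builds palmitate from it. The genes are classical targets of the sterol regulatory element binding proteins, membrane-bound factors that are cut and move to the nucleus when sterols run low. Srebf2 is known mainly for the sterol genes and Srebf1 for the fatty acid genes. Because cleavage activates these factors, the RNA of Srebf1 and Srebf2 does not measure their activity.

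Estimated depths were 24500000 fragments for the control library and 26400000, 25200000 and 27300000 for the libraries of 0, 6 and 10 days. They rest on a median of FPKM times kilobases among values preset to lie between 0.02 and 0.05, taken as 1 fragment. That window bounds the estimates, so they are rough. The lowest level of any of the 9 genes, 3.96 FPKM for Lss at 0 days, then rests on about 104 fragments per kilobase. Over 1 kilobase of transcript that is a counting error of 9.78%. The lowest levels in the other libraries had errors of 5.55% to 7.21% over the same length. Longer transcripts hold more fragments and have smaller errors. These errors cover counting only. Differences are given on log2(FPKM + 1), which understates the change of low genes, and the call of a gene as higher or lower requires 2-fold or more on that scale. The balance of higher and lower calls over all genes depended on the scaling of the libraries. For 0 days against control, higher genes were 48.9% of those called as deposited, 54.7% under median-ratio scaling, 65.5% under upper-quartile scaling, and 73.5% after rescaling the libraries to an equal total without small and ribosomal RNAs. The median gene moved by 0.05, 0.18 and 0.31 under these scalings. The last one divided levels by 0.271 at 0 days and 0.349 in the control, with the 1 added to FPKM kept. That 1 thus weighs less there, and its part in these changes was not separated.

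All 5 sterol synthesis genes had their lowest level at 0 days, and all 5 were 2-fold or more lower there than in the control. Their summed level was 79.4 FPKM at 0 days, against 252 FPKM in the control, and stood at 214 FPKM at 6 days and 197 FPKM at 10 days. The 2 fatty acid synthesis genes had another order, with Fasn low in all 3 ATRA libraries. Over all 5885 genes, 12.8% were 2-fold or more lower at 0 days than in the control, and 24.9% had their lowest level at 0 days. In RNA from whole embryoid bodies, fewer cells of a type and less RNA per cell cannot be told apart.

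Hmgcs1 (mm10 chromosome 13, 119690379 to 119708260, plus strand), which encodes the cytosolic HMG-CoA synthase, was at 78.7 FPKM in the control, then 25.8 at 0 days, 77.0 at 6 days and 61.9 at 10 days. The 0-day library alone was low, at 32.8% of the control level, and the 6-day library was at 97.9% of it. The log2 difference was -1.57 for 0 days against control and 1.54 for 6 against 0 days.

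Idi1 (chromosome 13, 8885501 to 8892451, plus strand), isopentenyl-diphosphate isomerase, was at 55.9 FPKM in the control, then 8.35 at 0 days, 30.0 at 6 days and 20.5 at 10 days. It had the largest difference of the 9 genes at 0 days against control, at 14.9% of the control level and a log2 difference of -2.61; 1.41% of all genes tested lay below it. All 3 ATRA libraries were below the control, and the 10-day library was still at 36.7% of the control level. Its close relative Idi2, on the same chromosome, was near or at 0 in every library, with at most 0.0494 FPKM.

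Fdft1 (chromosome 14, 63145150 to 63179578, minus strand), squalene synthase, was at 51.5 FPKM in the control, then 23.6 at 0 days, 50.7 at 6 days and 56.4 at 10 days. Only the 0-day library was low, and the 10-day library was the highest of the 4, at 109% of the control level. Its log2 difference at 0 days against control, -1.10, was the smallest of the 5 sterol genes. It was short of 2-fold at -0.85 under upper-quartile scaling and at -0.75 after rescaling without small RNAs.

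Sqle (chromosome 15, 59315077 to 59331192, plus strand), squalene epoxidase, a rate-limiting step after squalene, was at 52.9 FPKM in the control, then 17.8 at 0 days, 48.3 at 6 days and 51.1 at 10 days. The 6-day and 10-day libraries lay close to the control, at 91.4% and 96.7% of its level, and the 0-day library at 33.6%.

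Lss (chromosome 10, 76531588 to 76557138, plus strand), lanosterol synthase, was at 13.2 FPKM in the control, then 3.96 at 0 days, 7.64 at 6 days and 7.14 at 10 days. It was the lowest of the 9 genes in every library. Like Idi1 it stayed below the control in the later libraries, at 57.7% at 6 days and 53.9% at 10 days, both short of 2-fold.

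**Figure D1:**
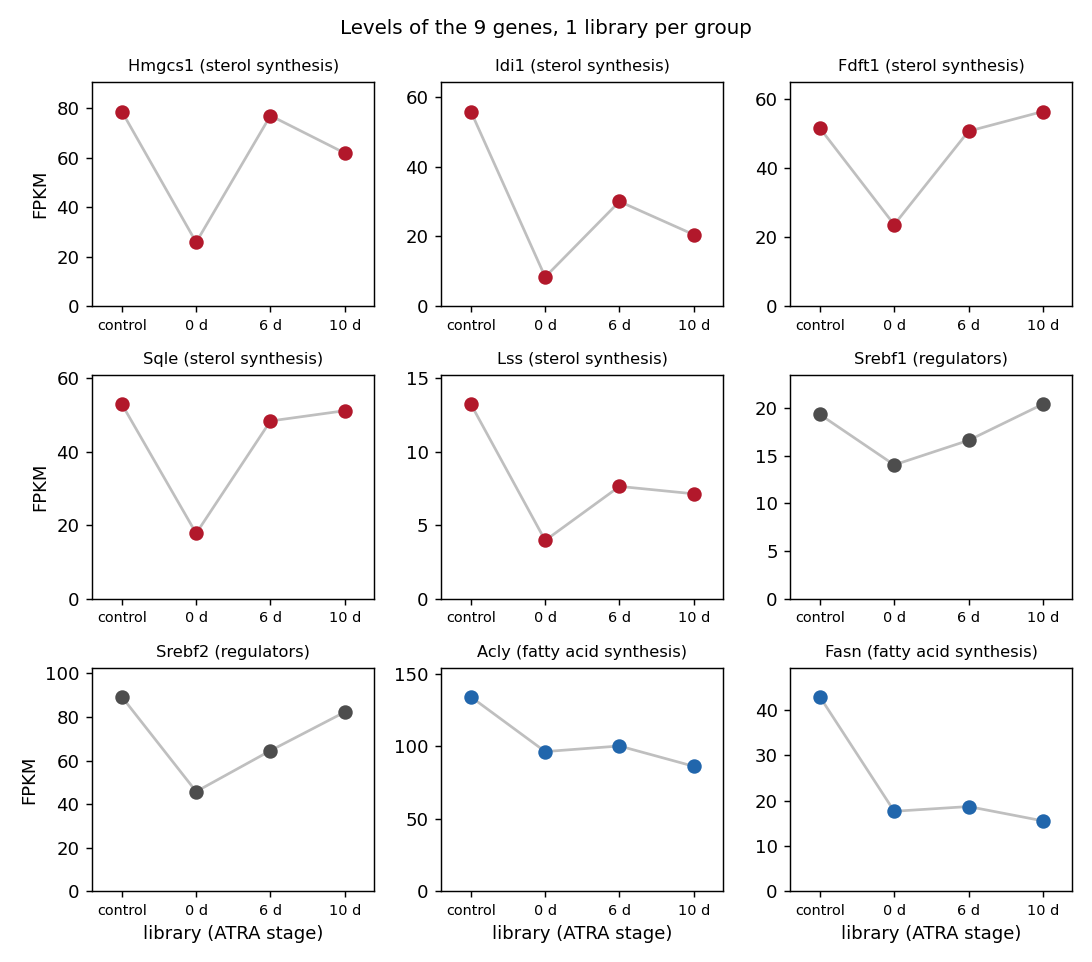
Level in FPKM (vertical axes, from 0, each panel with its own range) of the 9 genes in the 4 libraries, from the control through ATRA 0, 6 and 10 days; each point is 1 library, and lines only join the points of a gene. The 5 sterol genes are lowest at 0 days, while Fasn lies between 15.6 and 18.7 FPKM in all 3 ATRA libraries, below 42.9 FPKM in the control.

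Between 0 and 6 days, 4 of the 5 sterol genes were 2-fold or more higher at 6 days (Hmgcs1, Idi1, Fdft1 and Sqle), where 8.22% of all genes were higher and 4.88% lower; Lss had a log2 difference of 0.80. After rescaling without small RNAs the count was 3, with Fdft1 at 0.87. The median of the 5 was 1.39, against 0.01 over all genes. None of the 9 genes differed by 2-fold between 10 and 6 days, where 3.7% of all genes were higher and 0.85% lower. The same 4 sterol genes were 2-fold or more higher at 10 than at 0 days, beside 14.4% of all genes, while 7.6% of all genes were lower. That count was 1, Sqle, after rescaling without small RNAs, which moved the median gene by -0.39 for this comparison. Both comparisons use the 0-day library and so are not independent of the comparison of 0 days with the control.

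Against the control, none of the 5 sterol genes was 2-fold lower at 6 days and only Idi1 was at 10 days, with a log2 difference of -1.40. Over all genes, 12.5% were lower and 15.3% higher at 6 days, and 17.1% lower and 19.6% higher at 10 days. Hmgcs1, Fdft1 and Sqle lay within 0.13 of the control at 6 days on the log2 scale, and the sign of each of these 3 differences turned positive under upper-quartile scaling and after rescaling without small RNAs.

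The promoters of Hmgcs1, Idi1, Lss and Fasn are shown for the words known from sterol control. Each of these genes was 2-fold or more lower at 0 days than in the control, and Fasn was low in the later ATRA libraries too. The windows of Srebf1, Srebf2 and Acly are not printed. Sequences are RefSeq's on GRCm38.p6 (mm10), 250 bases before the annotated start, read 5′ to 3′ on the gene's strand. A promoter was found for 7 of the 9 genes, in 9 windows because Srebf1 has 3; Sqle and Fdft1 had none in the table. Capitals mark TCACNCCAC, a word of the sterol regulatory element, and CCAAT, the box bound by NF-Y, on either strand (CCAAT reads ATTGG on the opposite strand).
Hmgcs1 (chr13:119690101-119690350, + strand): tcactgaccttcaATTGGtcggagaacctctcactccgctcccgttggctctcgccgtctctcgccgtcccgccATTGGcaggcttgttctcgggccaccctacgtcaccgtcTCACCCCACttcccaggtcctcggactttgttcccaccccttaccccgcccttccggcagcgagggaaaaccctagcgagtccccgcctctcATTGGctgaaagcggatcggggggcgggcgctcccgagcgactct
Idi1 (chr13:8885356-8885605, + strand): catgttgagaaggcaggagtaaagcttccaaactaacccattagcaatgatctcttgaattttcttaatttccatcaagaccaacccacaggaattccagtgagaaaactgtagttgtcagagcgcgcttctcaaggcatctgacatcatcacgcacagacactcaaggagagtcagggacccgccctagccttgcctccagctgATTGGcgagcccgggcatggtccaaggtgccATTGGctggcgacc
Lss (chr10:76531355-76531604, + strand): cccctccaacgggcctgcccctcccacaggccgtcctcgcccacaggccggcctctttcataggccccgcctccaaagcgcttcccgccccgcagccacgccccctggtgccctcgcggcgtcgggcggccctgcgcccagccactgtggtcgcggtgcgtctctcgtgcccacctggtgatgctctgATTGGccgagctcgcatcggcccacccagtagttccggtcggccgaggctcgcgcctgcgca
Fasn (chr11:120824548-120824797, - strand): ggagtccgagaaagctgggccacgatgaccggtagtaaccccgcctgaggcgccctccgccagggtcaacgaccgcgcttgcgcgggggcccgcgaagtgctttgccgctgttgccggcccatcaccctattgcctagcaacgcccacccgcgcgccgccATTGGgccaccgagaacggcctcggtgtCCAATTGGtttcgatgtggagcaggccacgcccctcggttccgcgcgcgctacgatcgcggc

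Hmgcs1 was the only one of the 7 genes with TCACNCCAC, read as TCACCCCAC with its first base 137 bases before the start (chromosome 13, 119690214 to 119690222). That word stands in 1.24% of all 32851 promoter windows of 300 bases, which add the 50 bases after the start. The longer word of the human LDL receptor promoter stood in none of the members' windows and in 0.0913% of all. CCAAT stood in 8 of the 9 windows, at least once for each of the 7 genes, and in 37.4% of all windows. Hmgcs1 had 3 CCAAT boxes before its start and 1 after it, Idi1 had 2 and Lss 1, all on the opposite strand. These starts are RefSeq's and differ from the GENCODE positions given above. In GENCODE Idi1 begins at 8885501, so its boxes, from 8885561 and 8885592, lie inside the gene there. In Fasn a pair of boxes on the 2 strands overlaps in the run CCAATTGG. GGGCGG, the GC box bound by Sp1, stood in 7 of the 9 windows and in 35.7% of all, and the E-box CACGTG in none and in 7.15% of all. These matches describe the letters of the windows and are not measured binding.

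The regulators differed less than the sterol enzymes, and neither was called in any of the 6 comparisons. Srebf2 (chromosome 15, 82147181 to 82205379, plus strand) was at 89.2 FPKM in the control, then 45.8 at 0 days, 64.6 at 6 days and 82.2 at 10 days. Its 0-day level was 51.4% of the control, a log2 difference of -0.95, just short of 2-fold, and the levels then stood in the order 0, 6 and 10 days. Srebf1 (chromosome 11, 60199089 to 60222581, minus strand) was at 19.3 FPKM in the control, then 14.0 at 0 days, 16.6 at 6 days and 20.4 at 10 days. Its libraries spanned only 0.51 on the log2 scale, the narrowest range of the 9 genes. Srebf2 exceeded Srebf1 in every library, 4.61-fold in the control and 3.26-fold, 3.88-fold and 4.03-fold at 0, 6 and 10 days. The value for Srebf1 sums its isoforms, which start at separate promoters, so the forms known as 1a and 1c are not separated.

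**Figure D2:**
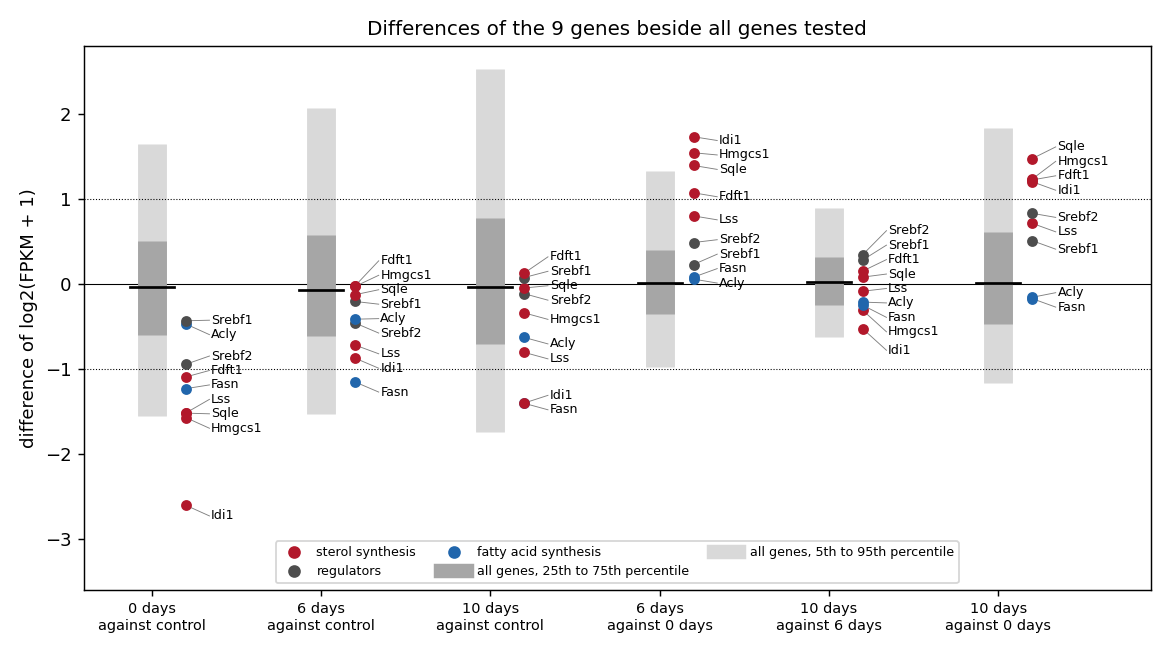
Difference of log2(FPKM + 1) (vertical axis) of each of the 9 genes in 6 comparisons that share libraries; dark and light grey bars span the 25th to 75th and the 5th to 95th percentiles of 5885 genes, black ticks their median, and dotted lines mark 2-fold. At 0 days against control all 9 genes lie below 0, from -2.61 for Idi1 to -0.43 for Srebf1, and at 6 against 0 days the sterol genes lie between 0.80 and 1.73 while Acly and Fasn lie at 0.06 and 0.08.

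Acly and Fasn had nearly the same level at 0 and 6 days. Fasn (chromosome 11, 120805846 to 120824547, minus strand), the fatty acid synthase, was at 42.9 FPKM in the control, then 17.7 at 0 days, 18.7 at 6 days and 15.6 at 10 days. All 3 ATRA libraries were low, between 36.3% and 43.6% of the control. The log2 differences from the control were -1.23, -1.15 and -1.41 at 0, 6 and 10 days; under upper-quartile scaling the first 2 were -0.99 and -0.93, short of 2-fold, and the first was -0.90 after rescaling without small RNAs.

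Acly (chromosome 11, 100476353 to 100528000, minus strand), ATP citrate lyase, was at 134 FPKM in the control, then 96.5 at 0 days, 100 at 6 days and 86.3 at 10 days. The ATRA libraries lay between 64.3% and 74.8% of the control, and no difference reached 2-fold. Acly was the highest of the 9 genes in every library. The ratio of Acly to Fasn was 3.13 in the control, and 5.46, 5.36 and 5.55 at 0, 6 and 10 days. The ratio of Hmgcs1 to Fasn was 1.83 in the control, and 1.46, 4.11 and 3.98 at 0, 6 and 10 days.

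Of 16 other sterol pathway genes listed, only 4 were among the deposited symbols: Acat2, Hsd17b7, Lbr and Idi2. Most of the rest of the pathway was thus not seen, and Idi2 did not reach 1 FPKM and was not tested. At 0 days against control 2 of the 3 tested genes, Acat2 and Hsd17b7, were 2-fold or more lower, beside 12.8% of all genes. The list median was -1.16, against -0.04 over all genes. Acat2, which condenses acetyl-CoA at the head of the pathway, was at 67.0 FPKM in the control, then 29.4 at 0 days, 58.0 at 6 days and 41.4 at 10 days. Hsd17b7, a sterol ketoreductase, was at 6.13, 1.75, 3.92 and 2.20 FPKM in the same order. Lbr, the lamin B receptor, which is also a sterol reductase, had a different order, at 74.5 FPKM in the control, then 37.6 at 0 days, 29.1 at 6 days and 22.2 at 10 days. Only Hsd17b7 was still 2-fold lower at 0 days against control under upper-quartile scaling and after rescaling without small RNAs, with list medians of -0.91 and -0.81. Acat2 and Hsd17b7 were lowest at 0 days, as were the 5 sterol genes named above, and Lbr at 10 days.

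Likeness to the sterol genes was measured as the root mean square distance between profiles of log2(FPKM + 1), each centred on its own mean over the 4 libraries. Among 4239 other genes at 5 FPKM or more in their highest library, the nearest to the mean profile of the 5 sterol genes were Nme1 (0.06), Dhrs4 (0.09), Pros1 (0.10), Rnpep (0.11) and Psmb3 (0.13). Nme1, a nucleoside diphosphate kinase, was at 166 FPKM in the control, then 48.6 at 0 days, 119 at 6 days and 106 at 10 days. Of the other sterol pathway genes, Acat2 ranked 46 at a distance of 0.25, Hsd17b7 178 at 0.35 and Lbr 2459 at 0.76. Measured against the mean of the other 4, Hmgcs1 was the closest of the 5 sterol genes (0.15) and Idi1 the farthest (0.48). In that measure Hmgcs1 ranked 9 and Idi1 827 of 4244 genes. The nearest to the mean of Acly and Fasn were Cdc73 (0.02), Tfb2m (0.02), Lsg1 (0.03), Dlgap5 (0.03) and Ctnna1 (0.04). Cdc73, a subunit of the PAF1 complex, was at 30.3 FPKM in the control, then 16.7 at 0 days, 17.5 at 6 days and 15.0 at 10 days.

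**Figure D3:**
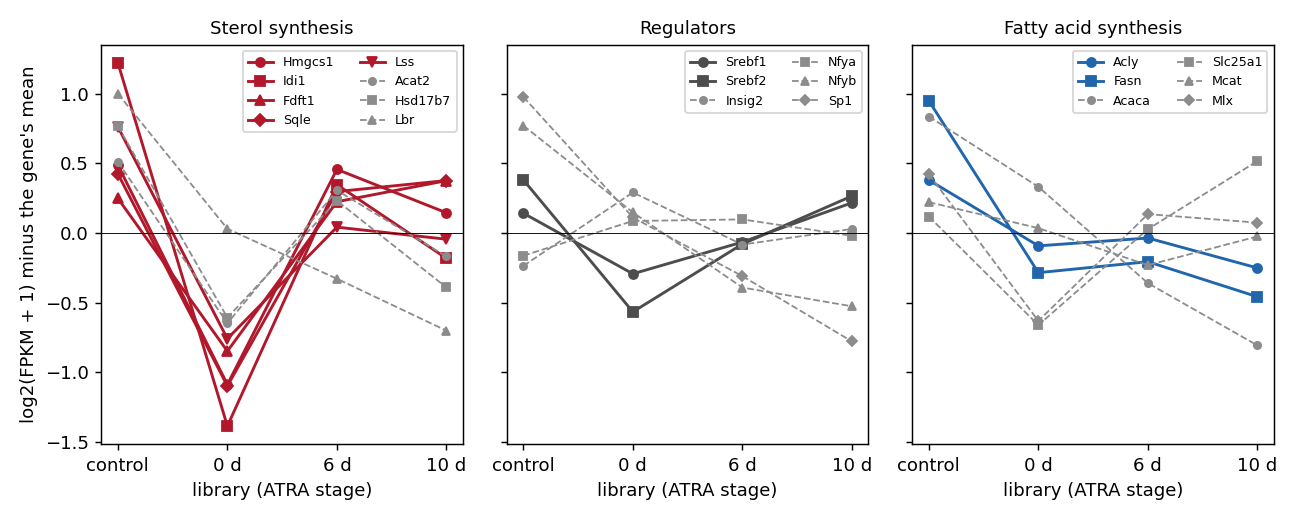
Profiles over the 4 libraries of log2(FPKM + 1) minus the gene's mean (vertical axis), for the 9 genes in colour or black and other genes of each pathway as dashed grey lines; each point is 1 library. The sterol genes meet in a low at 0 days, shared by Acat2 and Hsd17b7, while Acaca and Lbr are lowest at 10 days.

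Of 14 genes listed for sterol sensing, SREBP processing and partner factors, only 6 were among the deposited symbols, and all 6 were tested. They were Insig2, Rnf139, Tmem97 and the general transcription factors Nfya, Nfyb and Sp1, so most of the list was not seen. None of the 6 was called at 0 days against control. Against the control 2 were lower at 6 and at 10 days, beside 12.5% and 17.1% of all genes. Under upper-quartile scaling only Sp1 was lower at 6 days. The 2 genes were Nfyb, a subunit of NF-Y, at 50.8 FPKM in the control, then 32.6 at 0 days, 22.1 at 6 days and 20.1 at 10 days, and Sp1, at 48.3, 26.1, 19.2 and 13.6 FPKM. Insig2, which holds the SREBP complex in the endoplasmic reticulum and is named here after its values were seen, was at 11.5 FPKM in the control, then 16.9 at 0 days, 12.9 at 6 days and 14.0 at 10 days. Tmem97, a sterol-responsive membrane protein named here after its values were seen, was at 68.5 FPKM in the control, then 35.1 at 0 days, 58.3 at 6 days and 63.5 at 10 days.

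Genes of sterol uptake, transport and storage had mixed orders over the libraries. Of 18 listed, 9 were among the deposited symbols and tested. At 0 days against control 2 of these were higher and none lower, beside 12.2% higher over all genes. After rescaling without small RNAs 4 were higher. At 6 and at 10 days against the control 4 were higher and 1 lower. Over all genes, 15.3% were higher and 12.5% lower at 6 days, and 19.6% and 17.1% at 10 days. The largest ranges belonged to the acyltransferases that store cholesterol as esters. Soat1 was at 4.54 FPKM in the control, then 15.1 at 0 days, 31.3 at 6 days and 41.2 at 10 days. Soat2, the form of liver and intestine, was at 4.02 FPKM in the control, then 2.71 at 0 days, 26.3 at 6 days and 34.8 at 10 days. Npc2, which carries cholesterol out of lysosomes, was at 57.3 FPKM in the control, then 90.8 at 0 days, 130 at 6 days and 164 at 10 days. Lrp1, a lipoprotein receptor, was lower, at 16.8 FPKM in the control, then 9.57 at 0 days, 3.63 at 6 days and 5.05 at 10 days. Stard4, a cytosolic sterol carrier named here after its values were seen, was lowest at 0 days, at 17.0, 8.10, 16.4 and 16.5 FPKM.

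Of 28 other genes listed for fatty acid synthesis, elongation and desaturation, only 8 were among the deposited symbols, and no desaturase was among these. Of the 8, all tested, 1 was lower and 1 higher at 0 days against control, with a median of -0.44. These counts were near the shares over all genes, 12.8% lower and 12.2% higher. Mlx, a partner of the carbohydrate-responsive factor, was the lower one, at 13.1 FPKM at 0 days against 28.3 FPKM in the control, and stood at 23.0 FPKM at 6 days and 22.0 at 10 days. Elovl2, an elongase of polyunsaturated fatty acids, was the higher one, at 6.25 FPKM at 0 days against 2.12 FPKM in the control. Under the other 3 scalings Mlx was short of 2-fold and Elovl2 was not. Acaca, acetyl-CoA carboxylase, which makes the malonyl-CoA used by Fasn, was at 11.1 FPKM in the control, then 7.57 at 0 days, 4.31 at 6 days and 2.89 at 10 days, a log2 difference of -1.64 at 10 days against control. Slc25a1, the carrier that exports citrate from mitochondria for Acly, was at 47.2 FPKM in the control, then 27.1 at 0 days, 44.3 at 6 days and 62.6 at 10 days. Slc25a1 was thus highest at 10 days, where Acly, Fasn and Acaca were lowest.

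Glycerolipid genes were mixed. Of 11 tested, 3 were higher and 1 lower at 0 days against control, and 4 were higher and 1 lower at 10 days. Over all genes, 12.2% were higher and 12.8% lower at 0 days against control, and 19.6% and 17.1% at 10 days. Pnpla3, a lipid droplet protein, was the lower one at 0 days, at 0.909 FPKM at 0 days against 3.93 FPKM in the control, and stood at 4.20 FPKM at 6 days and 6.04 FPKM at 10 days. Lpin2, a phosphatidate phosphatase, was at 1.09 FPKM in the control, then 6.61 at 0 days, 4.64 at 6 days and 4.13 at 10 days. Chkb, choline kinase beta, was at 18.1, 42.8, 35.8 and 61.5 FPKM, and Agpat3, an acyltransferase, at 8.39, 24.6, 17.5 and 25.7 FPKM, in the same order. Of 6 tested genes of fatty acid oxidation, 1 was higher at 0 days against control (Acadvl) and 2 at 10 days (Acadvl and Acaa2), with none lower and medians of 0.15 and 0.61. After rescaling without small RNAs only Acadvl was higher at 10 days. Acadvl, the very long chain acyl-CoA dehydrogenase, was at 15.5 FPKM in the control, then 37.1 at 0 days, 31.5 at 6 days and 48.9 at 10 days. Acaa2, the mitochondrial thiolase, was higher at 10 than at 0 days, at 65.2 FPKM against 27.4 FPKM, a call that was also lost after that rescaling.

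**Figure D4:**
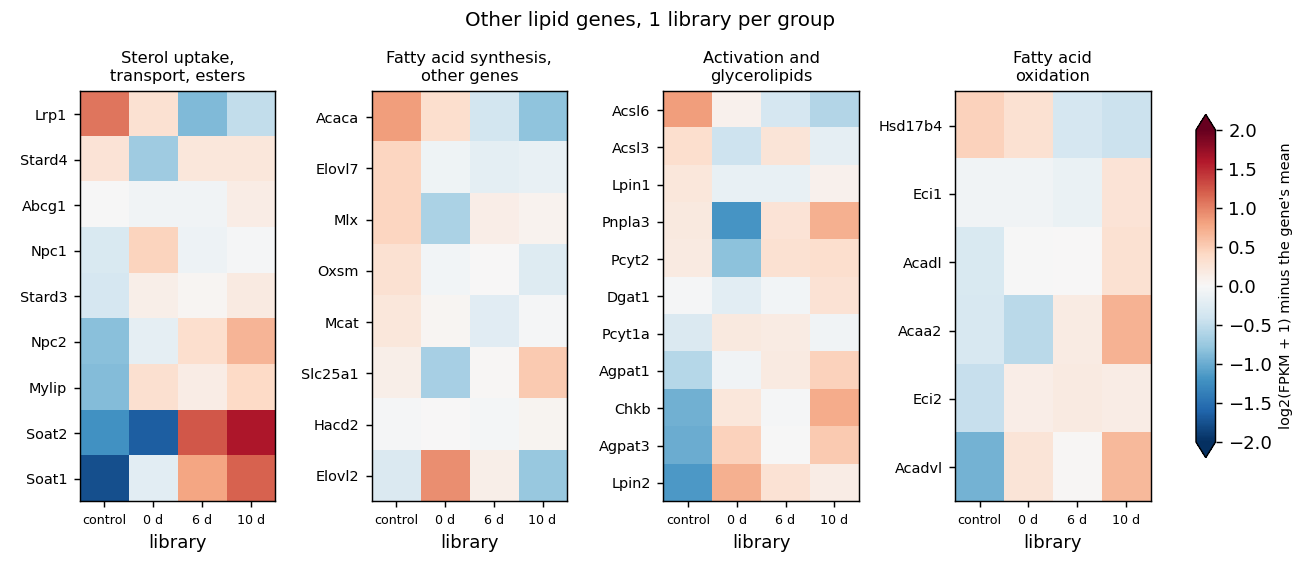
Colour gives log2(FPKM + 1) minus the gene's mean over the 4 libraries (columns, 1 library each) for the tested genes of 4 lists of lipid metabolism, ordered within a list by the mean of the ATRA libraries minus the control. Soat1 and Soat2 are darkest red at 10 days, Pnpla3, Pcyt2, Mlx, Slc25a1 and Stard4 are low at 0 days, and Acaca is low at 10 days.

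Of 7 tested genes of the other branches of the mevalonate pathway, which make ubiquinone, dolichol and prenyl groups, none was called at 0 days against control, and the median was -0.54. Only Pdss2, a subunit of the enzyme that makes the ubiquinone side chain, was called at 6 and 10 days, at 3.73 and 3.26 FPKM against 8.47 FPKM in the control; the 6-day call was lost under each of the other 3 scalings. Ggps1, which makes the geranylgeranyl donor and is named here after its values were seen, was at 9.52 FPKM in the control, then 11.5 at 0 days, 11.2 at 6 days and 9.29 at 10 days. Of 12 lipoprotein and bile acid genes listed, 4 were among the deposited symbols, and 3 of these were called higher than the control in each ATRA library. Cyp46a1, named after its values were seen, was at 0.698, 1.70, 1.67 and 2.22 FPKM from the control through 10 days. On log2(FPKM + 1) it was short of 2-fold as deposited. It was called in each ATRA library after rescaling without small RNAs, where the 1 added to FPKM weighs less. Over all genes, 12.2% were higher and 12.8% lower at 0 days against control. The shares were 15.3% and 12.5% at 6 days, and 19.6% and 17.1% at 10 days. Apoa2, an HDL apolipoprotein, was at 0.107 FPKM in the control, then 6.24 at 0 days, 40.8 at 6 days and 146 at 10 days, and Cyp27a1, the sterol 27-hydroxylase, at 1.46, 5.58, 7.97 and 7.55 FPKM.

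Markers of cell state and cell type moved over the same libraries. Over all genes, 12.2% were higher and 12.8% lower at 0 days against control. The shares were 15.3% and 12.5% at 6 days, and 19.6% and 17.1% at 10 days. All 7 pluripotent cell markers were lower in each ATRA library, with summed levels of 2235 FPKM in the control, then 176 at 0 days, 268 at 6 days and 243 at 10 days; Tdh, Tcl1, Esrrb and Dnmt3l had the largest ranges. The summed level of 10 genes of DNA replication and mitosis was 1610 FPKM in the control, then 583 at 0 days, 667 at 6 days and 538 at 10 days; 7 were lower at 0 days against control, and 4 after rescaling without small RNAs. The largest ranges were those of Rrm2, Tk1, Ccnb1 and Mcm4. In likeness to the sterol genes Birc5 ranked 32, Cdk1 43 and Tk1 309 of 4239, and the other 7 ranked between 999 and 3317. Summed levels of 12 endoderm markers were 173 FPKM in the control, then 362 at 0 days, 2475 at 6 days and 3593 at 10 days, with Apoa2 and Apob in both this list and the lipoprotein list. Most of each sum was Sparc, at 133, 259, 1862 and 2711 FPKM in the same order. At 0 days against control 7 of the 12 were higher and 1, Amn, lower (not under the other 3 scalings), and at 6 and at 10 days 11 were higher; the exception, Sox7, was at 5.11, 19.6, 5.48 and 3.04 FPKM. After Ttr and Apoa2, Sparc and Sox17 had the largest ranges. Summed levels of 8 neural markers were 9.85, 23.0, 120 and 56.1 FPKM, in the same order. Those of 7 trophoblast markers were 0.381, 0.157, 50.4 and 87.6 FPKM. Those of 7 muscle and mesenchyme markers were 14.8, 14.7, 91.5 and 376 FPKM. Sox11 was at 1.19 FPKM in the control and 12.4 at 0 days, and was the only 1 of 7 tested neural markers called higher there. After rescaling without small RNAs 3 were. Tnnc1 made up 217 FPKM of the muscle and mesenchyme sum at 10 days. The largest ranges were those of Fabp7, Nefl, Sox11 and Tagln3 among the neural, of Prl2b1, Tpbpa, Hand1 and Prl3b1 among the trophoblast, and of Tnnc1, Col3a1, Col1a1 and Myl7 among the muscle and mesenchyme markers. At 0 days the trophoblast markers Tpbpa, Prl2b1, Prl3d1, Prl3b1 and Prl2c2 and the mesenchyme marker Lum were listed at 0. In the control Prl2c2, Ctsq, Lum and the neural marker Nhlh1 were. The part of these changes in cell makeup and cell cycle in the levels of the 9 genes was not tested.

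Some of the 9 genes overlap other annotated genes, and the sources used here do not give whether strand was used in counting. On the opposite strand Hmgcs1 overlaps the antisense gene Gm48342 over 6190 bases, Lss overlaps 4930483K19Rik over 11268 bases, and Fdft1 overlaps the protease gene Ctsb over 774 bases. On its own strand Srebf2 overlaps Gm49502 over 2110 bases, an overlap that counting by strand would not separate. Srebf2 also contains Mir33, a microRNA that targets cholesterol export in mouse.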

How the data were processed

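RNA of 4 libraries, 1 per group, was analysed. The deposited values are FPKM with 1 column per library, per the file headers. Per the submitters' processing notes, the tools were Trimmomatic, TopHat and Cufflinks, on mm10; no version, annotation, strand setting or filter is given in the sources used here. Each FPKM is relative to the library total, so a few abundant transcripts lower all other values.

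Rows of the 177 repeated symbols, of 10201 rows, were summed. Differences of log2(FPKM + 1) were taken among the 5885 symbols whose highest library reached 1 FPKM, called at 2-fold, with no p-value, SD or test. For the depth estimate, the 1396 genes whose only GENCODE M21 transcript reaches 800 nt were used: their FPKM times kilobases between 0.02 and 0.05 have a median that was taken as 1 fragment. Positions are from GENCODE M21 and promoters from RefSeq.

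The 9 genes and the 14 further lists (230 entries, 108 in the table, 102 tested) were chosen with earlier results of these data known. Of each list, up to 4 genes at 5 FPKM or more with the largest range are named; genes listed at 0, and a few others, were named beside these after their values were seen. Some list genes are not reported here. Genes on chromosomes outside the table were not analysed here. The alternatives were pseudocounts of 0.1 and 0.5, no filter and a 5 FPKM filter, and median-ratio and upper-quartile scaling, rescaling to an equal total without small and ribosomal RNAs, only the highest row where a symbol repeats, and thresholds of 1.5-fold and 4-fold. The differences and their 2-fold calls were tested on simulated data, with changes set in genes averaging 5 FPKM or more. The other steps were not tested in this way. Python 3.11.15, numpy 2.4.6, pandas 2.3.3 and matplotlib 3.10.9 were used.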

Additional observations from a re-analysis of the deposited data

How the results depend on the processing

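With 1 library per group, no replicate could be left out. No paired analysis was possible because each group has a single library and the result comes from no test. Other pseudocounts, filters, median-ratio scaling and the highest row of a repeated symbol moved no count of called members by more than 1.5 times. At 0 days against control 6 members were lower as deposited. Under upper-quartile scaling, and also after rescaling without small and ribosomal RNAs, Fdft1 and Fasn were no longer called, which left the other 4 sterol genes. Upper-quartile scaling left 0 members lower at 6 days against control, where the deposited values gave 1. The median of the 5 sterol genes for that comparison, -0.13 as deposited, was 0.10 under upper-quartile scaling and 0.00626 after rescaling without small and ribosomal RNAs. That rescaling left 1 member higher at 10 against 0 days, where there were 4, and a sterol median of 0.83 against 1.22. A 4-fold threshold left 1 member lower at 0 days against control (Idi1), 0 lower at 6 and at 10 days against control, and 0 higher at 6 and at 10 days against 0 days. A 1.5-fold threshold gave 3 lower at 6 days and 4 lower at 10 days against control. Of 432 recomputed differences of single members, 407 kept their direction and their side of 2-fold, 9 were no longer 2-fold and 16 that were short of 2-fold changed sign. The filter settings and the highest row of a repeated symbol, with 54 differences each, could change none of these. Each member has 1 row and passes every filter, so the member counts could not change there either. After rescaling without small and ribosomal RNAs, 41 of 54 kept their direction and side of 2-fold. By the rough depth estimate, counting limits these levels little: the lowest rests on about 104 fragments per kilobase.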
